A study of Homo sapiens with 12 samples.

Results

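The glycolytic enzymes and the hypoxia response were examined in HEK293 cells that overexpressed forms of PEG10, through 34 genes chosen by name among the 26485 rows of the count table. They comprise 16 enzymes that carry glucose to lactate and 18 other targets of hypoxia-inducible factors (HIF), which were treated apart. All 34 had enough counts to be tested, among 17176 genes tested in all. The rule names the genes and uses no measured value, although they were chosen with earlier results of these data known. HEK293 is an established line of human embryonic kidney cells. Here WT cells received 1 μg of plasmid encoding PEG10 gag-pol, PEG10 gag, the PEG10 nucleocapsid fragment (NC) or, as the control, LifeAct-Dendra2, in which an actin-binding peptide is joined to a fluorescent protein, and poly(A) RNA was collected 48 hr later. The constructs carry a CMV promoter, and the methods name pCDNA, not LifeAct-Dendra2, as the control in the pathway analysis. Each construct has 3 libraries, numbered 1 to 3, from independent passages of the cells, which gives 12 libraries. The share of cells that took up each plasmid was not measured in these data, so a change in all cells and a larger change in some of them cannot be told apart, and in bulk RNA fewer cells and less RNA per cell cannot be told apart either.

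Glycolysis splits a glucose molecule into pyruvate and yields ATP without oxygen, and lactate dehydrogenase then turns pyruvate into lactate. When oxygen is scarce, prolyl hydroxylases no longer mark the HIF alpha subunits for destruction by the VHL ubiquitin ligase, and HIF, paired with ARNT, binds sites that hold the core ACGTG or GCGTG near its targets. Those targets include most glycolytic enzymes as well as genes for glucose uptake, blood vessel growth, mitochondrial clearance, collagen hydroxylation and feedback on HIF itself. Many glycolytic genes are also driven by other factors, among them MYC and the glucose sensor MLXIP.

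Library totals ran from 30.6 to 45.3 M counts on genes. The counts of *PEG10*, which cannot separate plasmid from endogenous transcripts, were 8404 to 12638 after normalization in control, 91543 to 146122 under NC, 1089350 to 2835980 under gag-pol and 1409240 to 2439090 under gag, so every construct group stood above control. No libraries of one construct were duplicates, since their chi-square per degree of freedom was 32.3 to 108. All 6 marker genes of HEK293 cells that were listed had counts in every library, from 41 upwards. Of the other lineages, the summed markers of blood reached 33.3 normalized counts, of endothelium 62.9, of keratinocytes 12.3 and of hepatocytes 59.2. The fibroblast sum of 604 to 1612 was almost wholly *COL1A1*, while *DCN*, *LUM* and *THY1* had at most 8 counts. The summed HEK293 markers ranged from 5915 to 10481 in control, 6305 to 9310 under gag, 9866 to 12244 under gag-pol and 9339 to 14929 under NC. The NC sums thus reached above and the gag sums stayed below those of gag-pol, *NEFL* with 2916 to 12577 raw counts made up most of the sum, and the part of these markers in the results below was not tested.

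NC-transfected cells carried more transcript of the glycolytic pathway than gag-transfected cells. These constructs also differed in *PEG10* counts, with 91543 to 146122 after normalization under NC and 1409240 to 2439090 under gag. The NC insert is also shorter than that of gag. Amount, length and identity of the construct cannot be told apart here. In the edgeR quasi-likelihood test with Benjamini-Hochberg adjustment over all genes tested, 11 of the 16 glycolytic enzymes rose with NC against gag, by 0.25 to 0.65 on the log2 scale, and none fell. Of the 18 other HIF targets, *PDK1*, *P4HA1*, *BNIP3* and *BNIP3L* rose, *ADM* fell and 13 did not pass the threshold of 0.05. In the same comparison 16.9% of all genes tested were called, 8.76% as higher and 8.12% as lower. The median difference was 0.28 for the glycolytic enzymes, 0.10 for the other HIF targets and -0.01 for all genes tested. The estimate was above 0 for 16 of 16 glycolytic enzymes, beside 8456 of 17176 genes tested. The 11 enzymes include at least 1 gene for every step of the pathway except those of PGAM1 and PKM. For these the differences were 0.24 (adjusted p = 0.0558) and 0.10 (adjusted p = 0.469). *HK2* and *ALDOC*, the only called genes at the hexokinase and aldolase steps, held 35.8% and 1.53% of their family's level in control. *HK1* and *ALDOA*, the main forms, were not called.

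Per length, the most abundant of the 34 transcripts were those of glycolytic enzymes, although *HK2*, *PFKM* and *ALDOC*, at 14.8, 12.4 and 4.21 in control, lay below several other HIF targets. The following levels are counts per kilobase of merged exons and per M counts, taken in control cells. *GAPDH*, the dehydrogenase that makes NADH, reached 857 ± 115 (SD, n = 3), *ENO1* 474, *ALDOA* 271, *TPI1* 202 and *PKM* 199. The ranges of *TPI1* (162 to 238) and *PKM* (182 to 217) overlapped, so the order of these neighbors is not settled, whereas *GAPDH*, *ENO1* and *ALDOA* did not overlap one another. Among the other HIF targets, *NDRG1* was the highest at 25.3 and *P4HA1* followed at 19.5, with overlapping ranges. *PDK1*, *SLC2A3* and *PFKFB4* lay at 1.64, 1.55 and 1.49. *ANKRD37* (0.332) and *CA9* (0.164), a carbonic anhydrase widely used as a hypoxia marker, were near the limit of detection, with raw counts of 8 to 49 and 4 to 16 per library. *CA9* and *ANKRD37* also share 35.7% and 40.3% of their exon bases with *ARHGEF39* and *UFSP2*, and without a stated strand setting the reads of such pairs cannot be separated. Reads of *GAPDH*, *TPI1*, *PGAM1*, *ENO1* and other glycolytic genes can also match processed pseudogenes, and how the counting treated them is not given in the sources used here.

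**Figure D1:**
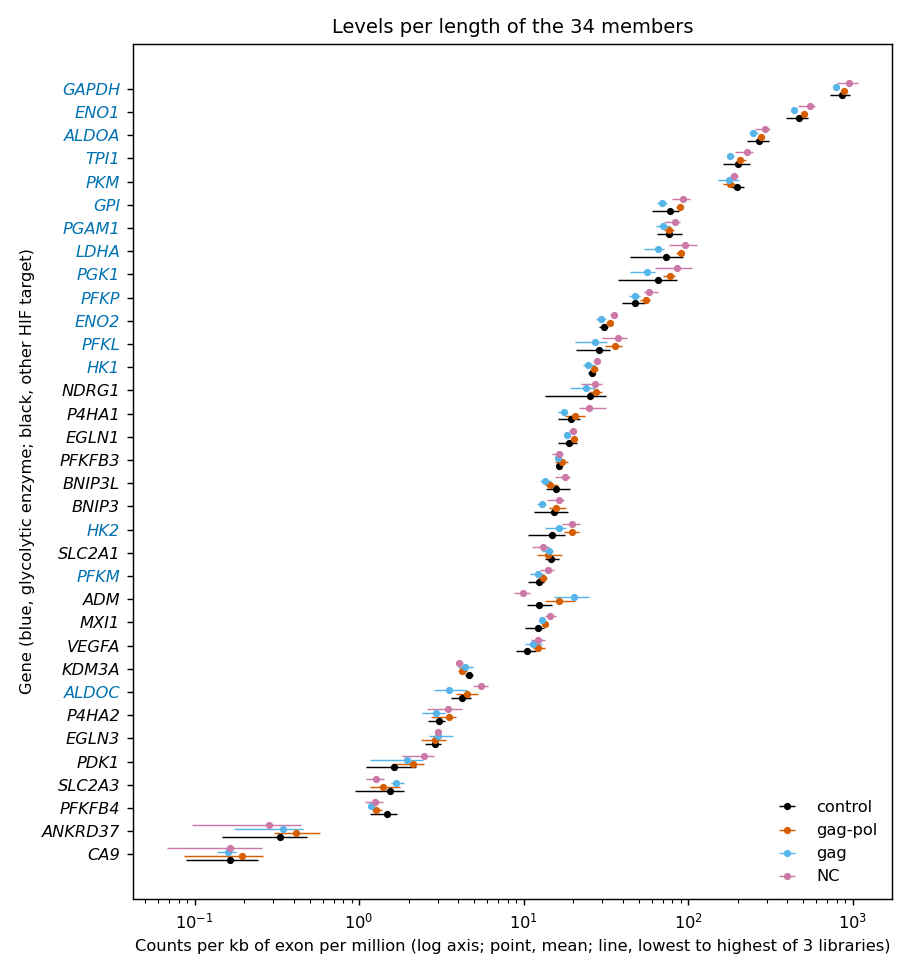
Level of each of the 34 genes, in counts per kilobase of exon and per M counts on a log axis, as the mean (point) and the lowest and highest library (line) of 3 libraries for each construct. *GAPDH*, at 857 in control, is the highest, *CA9*, at 0.164, the lowest, and the 4 constructs lie close together for most genes on this scale.

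Within isozyme families the same form dominated under all constructs. *PFKP*, the platelet form of phosphofructokinase, made up 53.7% ± 2.21 of the family's level per length in control (SD, n = 3), *PFKL* 32.2% ± 2.57 and *PFKM* 14.1% ± 0.907. *ALDOA* held 98.5% of aldolase, *ENO1* 93.9% of enolase and *SLC2A1* 90.6% of the 2 glucose transporters. *HK2*, the hexokinase that HIF induces, held 35.8% ± 5.03 of *HK1* and *HK2* together in control, 42.4% ± 3.59 with gag-pol, 39.8% ± 5.92 under gag and 41.2% ± 2.96 under NC (SD, n = 3 each). The pooled ranges overlapped, but within passages 1, 2 and 3 the share of *HK2* was 39.7%, 37.7% and 30.1% in control, 45.4%, 43.3% and 38.4% with gag-pol, 43.9%, 42.6% and 33.0% with gag and 41.7%, 43.9% and 38.0% with NC, so that it was above control in every passage for each construct. These shares were not tested.

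The HIF core was looked for in the 250 bases before each annotated start, as ACGTG or GCGTG on either strand. The RefSeq promoter table (GRCh38.p14) held 30 of the 34 genes. Of their 55 promoter windows, 60.0% held the core, compared with 43.2% of all 35116 windows. The form ACGTG alone was in 40.0% of member windows and 18.5% of all windows. ACGTG overlaps the E-box CACGTG, which MYC and MLXIP recognize and which was in 14.5% and 6.34%. A match is a string of letters, not a shown binding site, and windows of the same gene can overlap. The 5 windows below belong to the genes with the largest differences between NC and gag among called members that have a single listed start. They are shown because these genes moved furthest, *ADM* downward and the other 4 upward, and capitals mark each ACGTG or GCGTG, on the printed or the opposite strand (CACGT or CACGC). The windows are chr21:44299803-44300052 on the plus strand for *PFKL*, chr17:28576896-28577145 on the minus strand for *ALDOC*, chrX:78103998-78104247 on the plus strand for *PGK1*, chr10:73096867-73097116 on the minus strand for *P4HA1* and chr11:10304823-10305072 on the plus strand for *ADM*, each printed 5′ to 3′ in the direction of the gene.
PFKL: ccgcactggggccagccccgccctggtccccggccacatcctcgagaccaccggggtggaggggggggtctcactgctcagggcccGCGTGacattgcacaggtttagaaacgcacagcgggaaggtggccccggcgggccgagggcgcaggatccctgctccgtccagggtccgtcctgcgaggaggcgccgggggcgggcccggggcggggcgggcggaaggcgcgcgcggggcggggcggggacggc
ALDOC: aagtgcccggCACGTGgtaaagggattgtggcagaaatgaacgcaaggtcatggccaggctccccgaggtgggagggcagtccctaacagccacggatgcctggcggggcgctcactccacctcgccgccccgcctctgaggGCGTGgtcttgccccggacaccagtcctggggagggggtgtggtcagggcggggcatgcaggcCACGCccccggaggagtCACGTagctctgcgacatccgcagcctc
PGK1: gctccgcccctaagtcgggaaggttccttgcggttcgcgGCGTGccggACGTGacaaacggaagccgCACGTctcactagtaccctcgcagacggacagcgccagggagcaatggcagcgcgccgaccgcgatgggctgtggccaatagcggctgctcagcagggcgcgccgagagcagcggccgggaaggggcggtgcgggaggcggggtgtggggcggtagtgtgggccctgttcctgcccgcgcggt
P4HA1: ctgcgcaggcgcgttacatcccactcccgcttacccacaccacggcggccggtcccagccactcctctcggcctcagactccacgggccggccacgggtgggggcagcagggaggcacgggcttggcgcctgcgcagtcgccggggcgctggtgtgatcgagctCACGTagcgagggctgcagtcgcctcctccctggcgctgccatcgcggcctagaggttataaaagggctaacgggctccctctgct
ADM: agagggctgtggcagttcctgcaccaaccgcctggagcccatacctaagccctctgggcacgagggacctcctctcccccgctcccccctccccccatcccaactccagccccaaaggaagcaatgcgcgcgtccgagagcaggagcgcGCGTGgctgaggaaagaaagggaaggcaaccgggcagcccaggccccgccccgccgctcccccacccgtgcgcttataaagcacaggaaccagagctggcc
*ALDOC* held 5 matches, of which 2 are the strands of the same E-box CACGTG, *PGK1* held 3, and *PFKL*, *P4HA1* and *ADM* held 1 each. The single match of *ADM*, the gene that fell, is GCGTG, and so is that of *PFKL*, which rose.

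Library by library, the glycolytic enzymes followed both the construct and the passage. The mean over the 16 enzymes of the log2 difference from each gene's 12-library mean was 0.12, 0.02 and -0.37 in control libraries 1, 2 and 3. It was 0.09, 0.08 and 0.05 under gag-pol, -0.14, -0.11 and -0.26 with gag and 0.21, 0.31 and -0.01 with NC. NC was thus above gag in each of the 3 passages, and gag-pol was above gag in each as well. Control library 3 was the lowest of the 12, and the control group spanned the range of all others except NC 1 and NC 2. For the 18 other HIF targets the same mean ran only from -0.10 to 0.17 and the constructs overlapped. Their median was -0.03, -0.10 and -0.07 in gag libraries 1, 2 and 3, below that of every other library. The lowest of those others was gag-pol library 3 at -0.02. After construct and passage means were removed, the median correlation between pairs of glycolytic enzymes over the 12 libraries was 0.80, with 119 of 120 pairs positive. For the other HIF targets it was 0.07, with 83 of 153 pairs positive. These values describe shared movement in the same libraries and carry no test. Removing construct and passage means left 6 degrees of freedom. The other HIF targets include *CA9* and *ANKRD37*, with 4 to 16 and 8 to 49 raw counts, and the part of abundance in this contrast was not tested.

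**Figure D2:**
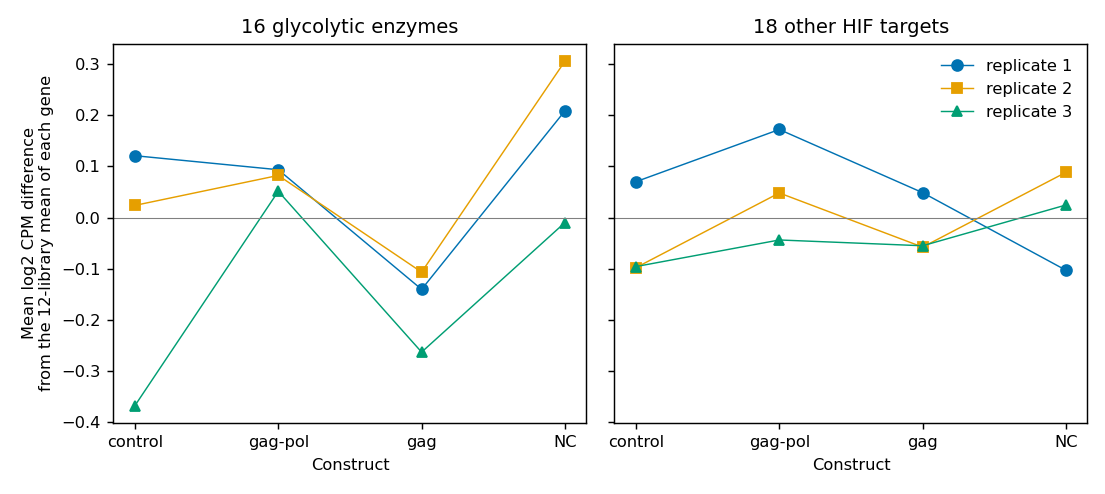
Mean log2 CPM difference of each library from the 12-library mean of each gene, for the 16 glycolytic enzymes (left) and the 18 other HIF targets (right), with lines joining the libraries of one replicate number. On the left the gag libraries sit at -0.26 to -0.11 and the NC libraries at -0.01 to 0.31, and control replicate 3 is the lowest at -0.37.

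Hexokinase, phosphoglucose isomerase and phosphofructokinase prepare glucose for cleavage. The normalized count of *HK2* was 3953, 3551 and 2377 in control libraries 1, 2 and 3, 4814, 4452 and 3925 with gag-pol, 4006, 3949 and 3000 with gag and 4454, 4905 and 3799 with NC. In every passage the gag-pol and NC libraries exceeded the control library, although the pooled groups overlapped because passage 3 was low throughout. *HK2* rose by 0.44 on the log2 scale with gag-pol (standard error 0.09, adjusted p = 0.00277) and by 0.43 with NC (standard error 0.09, adjusted p = 0.00401) against control, and with gag its difference was 0.16 (adjusted p = 0.427). Against gag, *HK2* rose by 0.27 with NC (adjusted p = 0.0338) and differed by 0.28 with gag-pol (adjusted p = 0.0542). The 2 *HK2* calls against control held in each of 15 fits without 1 library or 1 passage. So did those of *PDK1* for NC against control and of *PFKL* and *ADM* for NC against gag. Every other pairwise call of a member was lost in at least 1 of the 15 fits. Only 3 fits kept *VEGFA* with gag-pol and *GPI* with NC against control, and 4 kept *LDHA* with gag-pol against gag. *VEGFA* with NC against control was kept in 5. *P4HA1* with NC against control and *GAPDH* with NC against gag were kept in 6 each. At the other end, 14 kept *PFKL* with NC against control. *HK1*, the constitutive hexokinase, was not called in any comparison between constructs, with differences against control of 0.04 under gag-pol, -0.08 under gag and 0.10 under NC.

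*GPI*, which turns glucose 6-phosphate into fructose 6-phosphate, had normalized counts of 34457, 35162 and 24267 in control, 36504, 37226 and 33950 with gag-pol, 27355, 30110 and 26062 with gag and 38823, 41260 and 32200 with NC. All gag-pol and all NC libraries stood above all gag libraries. *GPI* rose by 0.37 with gag-pol (adjusted p = 0.0133) and by 0.42 with NC (adjusted p = 0.00277) against gag, and by 0.27 with NC against control (adjusted p = 0.048). The call of *GPI* for NC against control was lost with RLE normalization (adjusted p = 0.051) or with *PEG10* left out (adjusted p = 0.0554), while its other calls held under these settings. *PFKL*, the liver form of phosphofructokinase and the committed step of the pathway, was at 10678, 11321 and 7014 in control, 12372, 13299 and 10564 with gag-pol, 9504, 10809 and 6903 with gag and 13181, 14226 and 10128 with NC. Within each passage NC and gag-pol were above control and gag, and passage 3 was the lowest of its construct in all 4 groups. *PFKL* rose in 4 of the 6 pairwise comparisons of constructs, by 0.35 with gag-pol and 0.39 with NC against control (standard error 0.08 and adjusted p = 0.00661 and 0.00443) and by 0.43 and 0.47 against gag (adjusted p = 0.00487 and 0.000684).

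The other phosphofructokinases differed less. *PFKP* was at 14041, 16018 and 11676 in control, 14856, 17191 and 16735 with gag-pol, 12746, 15021 and 13836 with gag and 15702, 19221 and 15868 with NC, where NC stood clear of gag. *PFKP* rose by 0.28 with NC against control (adjusted p = 0.0297) and by 0.28 against gag (adjusted p = 0.0215), and its difference of 0.23 with gag-pol against control had an adjusted p of 0.0712. *PFKM*, the muscle form, ranged from 2883 to 4196 over the 12 libraries. It was called only in the pooled comparison given below.

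Aldolase and triose phosphate isomerase cut and convert the sugar phosphate. *ALDOC*, the brain aldolase, was at 472, 414 and 354 in control, 382, 440 and 518 with gag-pol, 314, 442 and 279 with gag and 486, 594 and 534 with NC. NC libraries were above all gag libraries, and gag-pol libraries overlapped with every group. *ALDOC* rose by 0.65 with NC against gag (standard error 0.16, adjusted p = 0.00871), which was the largest difference of a glycolytic enzyme in this comparison, from a gene that held only 1.53% of the aldolase level in control. *ALDOA*, the main aldolase, differed by 0.23 (95% interval 0.05 to 0.41, adjusted p = 0.0769). *TPI1* was at 19329, 17809 and 17418 with gag and 25230, 24950 and 19576 with NC, without overlap, and rose by 0.35 (adjusted p = 0.00829). In control *TPI1* was at 24131, 20768 and 16474 and with gag-pol at 22720, 20064 and 20202, and neither construct was called against control for this gene.

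In the payoff phase *GAPDH*, *PGK1*, *ENO1*, *ENO2* and *LDHA* rose with NC against gag, and *PGAM1* and *PKM* were not called. *GAPDH* rose by 0.27 with NC against gag (adjusted p = 0.0458), from 72497, 70306 and 70763 with gag to 89589, 97125 and 72220 with NC. Its groups touched, since NC library 3 lay below gag library 1, and the call of *GAPDH* was lost when only the 6 compared libraries were fitted (adjusted p = 0.149). *PGK1*, the kinase that makes the first ATP of the pathway, was at 17549, 15292 and 7634 in control, 15974, 17028 and 14341 with gag-pol, 12654, 12863 and 9013 with gag and 18109, 21727 and 12937 with NC. *PGK1* rose by 0.60 with NC against gag (standard error 0.16, adjusted p = 0.027), and all NC libraries exceeded all gag libraries. Against control it differed by 0.42 with NC (95% interval 0.07 to 0.77, adjusted p = 0.118) and by 0.30 with gag-pol (95% interval -0.05 to 0.65, adjusted p = 0.256), where control library 3, at less than any other library, widened the control group. Without a filter on low counts the adjusted p of *PGK1* for NC against gag was 0.0843.

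*ENO1*, the ubiquitous enolase, was at 88514, 84373 and 85252 with gag and 115816, 115200 and 91325 with NC, and rose by 0.31 (adjusted p = 0.0239). Its call was lost when only the 6 compared libraries were fitted (adjusted p = 0.0955). *ENO2*, the neuronal enolase, was at 4407, 5106 and 4809 with gag and 5420, 5860 and 5769 with NC, and rose by 0.25 (adjusted p = 0.0188). In both genes every NC library was above every gag library. *LDHA*, which makes lactate from pyruvate, was at 21009, 19038 and 10082 in control, 21109, 20930 and 19225 with gag-pol, 15951, 16210 and 12175 with gag and 22624, 25507 and 17319 with NC. *LDHA* rose by 0.49 with gag-pol (standard error 0.13, adjusted p = 0.0494) and by 0.56 with NC (standard error 0.13, adjusted p = 0.0143) against gag, with no overlap in either case. The gag-pol call of *LDHA* was lost with RLE normalization (adjusted p = 0.0502), with *PEG10* left out (adjusted p = 0.053) and without the filter on low counts (adjusted p = 0.0901). *PKM*, the enzyme that makes pyruvate, was at 48980 to 70064 over the 12 libraries, and its estimate was below 0 with each construct against control, at -0.15, -0.16 and -0.06, with no call.

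**Figure D3:**
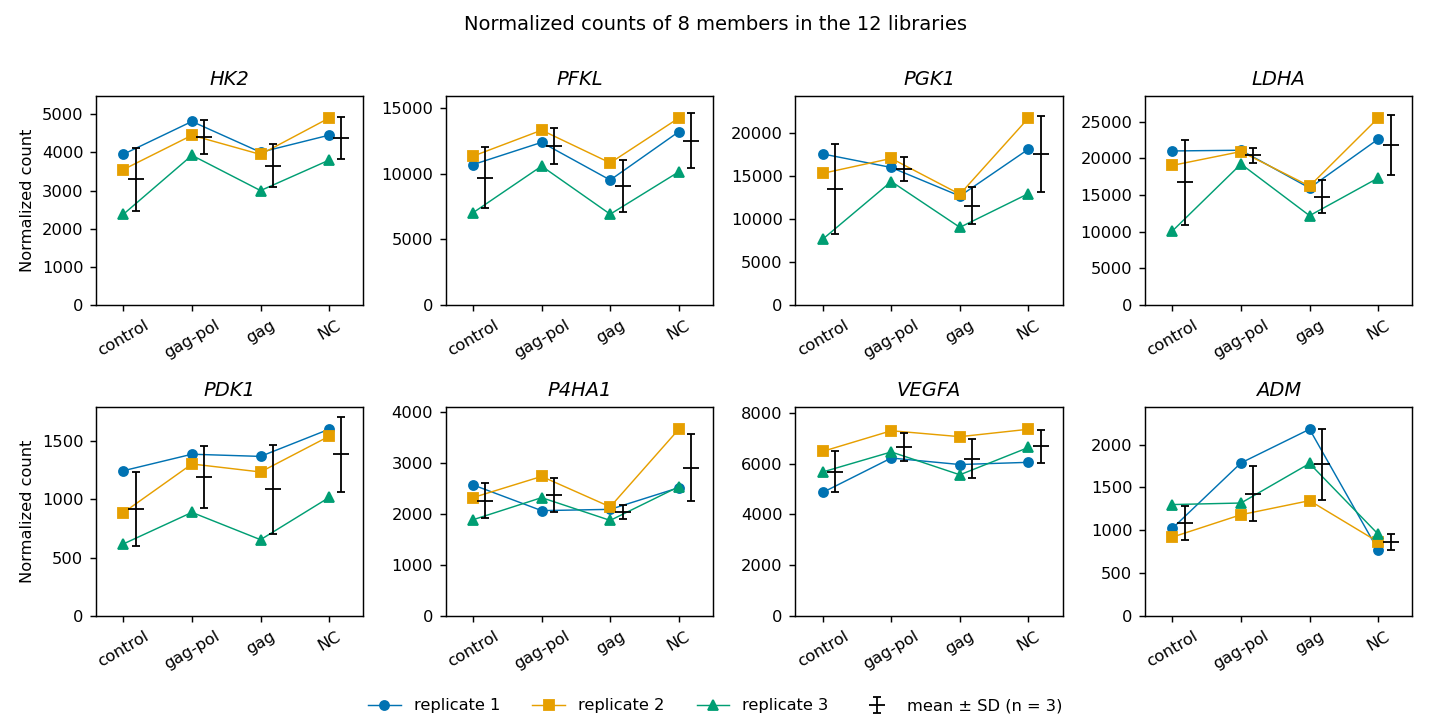
Normalized counts of 8 of the 34 genes in the 12 libraries, by construct, with lines joining libraries of one replicate number and the mean ± SD of 3 libraries beside them. *LDHA* in the gag libraries reaches 16210 and starts at 17319 with NC, while *ADM* is at 768 to 955 with NC and 1347 to 2180 with gag.

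The other HIF targets did not move as a group. *PDK1*, the kinase that shuts pyruvate dehydrogenase and keeps pyruvate out of the mitochondria, was at 1244, 885 and 617 in control, 1385, 1301 and 887 with gag-pol, 1366, 1233 and 653 with gag and 1599, 1538 and 1015 with NC. In each passage all 3 PEG10 forms were above control and NC was the highest, while the pooled groups overlapped. *PDK1* rose by 0.41 with gag-pol (standard error 0.11, adjusted p = 0.0154) and by 0.62 with NC (standard error 0.11, adjusted p = 0.00147) against control, and by 0.39 with NC against gag (adjusted p = 0.0148). With gag against control its difference was 0.23 (95% interval 0.01 to 0.45, adjusted p = 0.328).

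*VEGFA*, the growth factor for blood vessels, was at 4866, 6483 and 5672 in control, 6221, 7295 and 6461 with gag-pol, 5965, 7061 and 5561 with gag and 6052, 7355 and 6638 with NC. The order of the passages differed from that of the glycolytic enzymes, with passage 2 the highest under every construct. *VEGFA* rose by 0.24 with gag-pol (adjusted p = 0.0406) and by 0.24 with NC (adjusted p = 0.0387) against control. The gag-pol call of *VEGFA* was lost when only the 6 compared libraries were fitted (adjusted p = 0.114). *P4HA1*, a catalytic subunit of the enzyme that hydroxylates prolines in collagen, was at 2572, 2324 and 1889 in control, 2068, 2738 and 2322 with gag-pol, 2093, 2141 and 1876 with gag and 2517, 3664 and 2536 with NC. NC library 2 stood above all others and all NC libraries were above all gag libraries. *P4HA1* rose by 0.50 with NC against gag (adjusted p = 0.00492) and by 0.35 against control (adjusted p = 0.0431), where 2 of the 3 passages shared the direction. The latter call of *P4HA1* was lost with *PEG10* left out (adjusted p = 0.0501) and with only the 6 compared libraries (adjusted p = 0.0524). *P4HA2*, the second such subunit, differed by 0.24 with NC against gag (adjusted p = 0.0963).

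*BNIP3* and *BNIP3L* encode outer membrane receptors that deliver mitochondria to autophagy. *BNIP3* was at 1998, 2094 and 1834 with gag and 2659, 2684 and 2119 with NC, and rose by 0.32 (adjusted p = 0.0261). *BNIP3L* was at 2284, 2057 and 1973 with gag and 2924, 2975 and 2420 with NC, and rose by 0.40 (adjusted p = 0.00439). For both, NC and gag did not overlap, and neither was called with any construct against control.

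*ADM*, which encodes the vasodilator peptide adrenomedullin, ran the opposite way. Its normalized count was 1023, 921 and 1301 in control, 1787, 1182 and 1319 with gag-pol, 2180, 1347 and 1780 with gag and 768, 865 and 955 with NC. Every gag library exceeded every control library, and every NC library lay below every gag and gag-pol library. *ADM* rose by 0.70 with gag against control (standard error 0.15, adjusted p = 0.0361) and fell by 1.01 on the log2 scale with NC against gag (standard error 0.15, adjusted p = 0.00103). The fall of *ADM* was called whichever library or passage was left out, at -1.20 to -0.76, whereas the rise with gag held in 6 of 15 such fits, at 0.49 to 0.83. NC differed from gag-pol in *ADM* by -0.71 (95% interval -1.03 to -0.39, adjusted p = 0.087).

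The transporters and feedback genes were not called in any pairwise comparison of constructs. *SLC2A1*, the main glucose transporter, was at 2793 to 4272 over the 12 libraries and differed by -0.06 under gag-pol, -0.04 under gag and -0.16 under NC against control. *SLC2A3*, a transporter of higher affinity, differed by -0.41 with NC against gag (95% interval -0.78 to -0.05, adjusted p = 0.112), with NC at 302 to 384 and gag at 426 to 509. Neither transporter therefore followed the enzymes in its estimate. *EGLN1* and *EGLN3*, the HIF prolyl hydroxylases that HIF itself induces, differed against control by -0.05 to 0.09 for the former and -0.02 to 0.06 for the latter. For *PFKFB3*, *PFKFB4*, *NDRG1*, *KDM3A* and *MXI1*, the estimates against control ran from -0.32 to 0.25. *CA9* and *ANKRD37* had too few counts to show a moderate difference at this depth, with 95% intervals of -1.20 to 1.65 for *CA9* and -0.72 to 1.51 for *ANKRD37* with gag-pol against control.

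**Figure D4:**
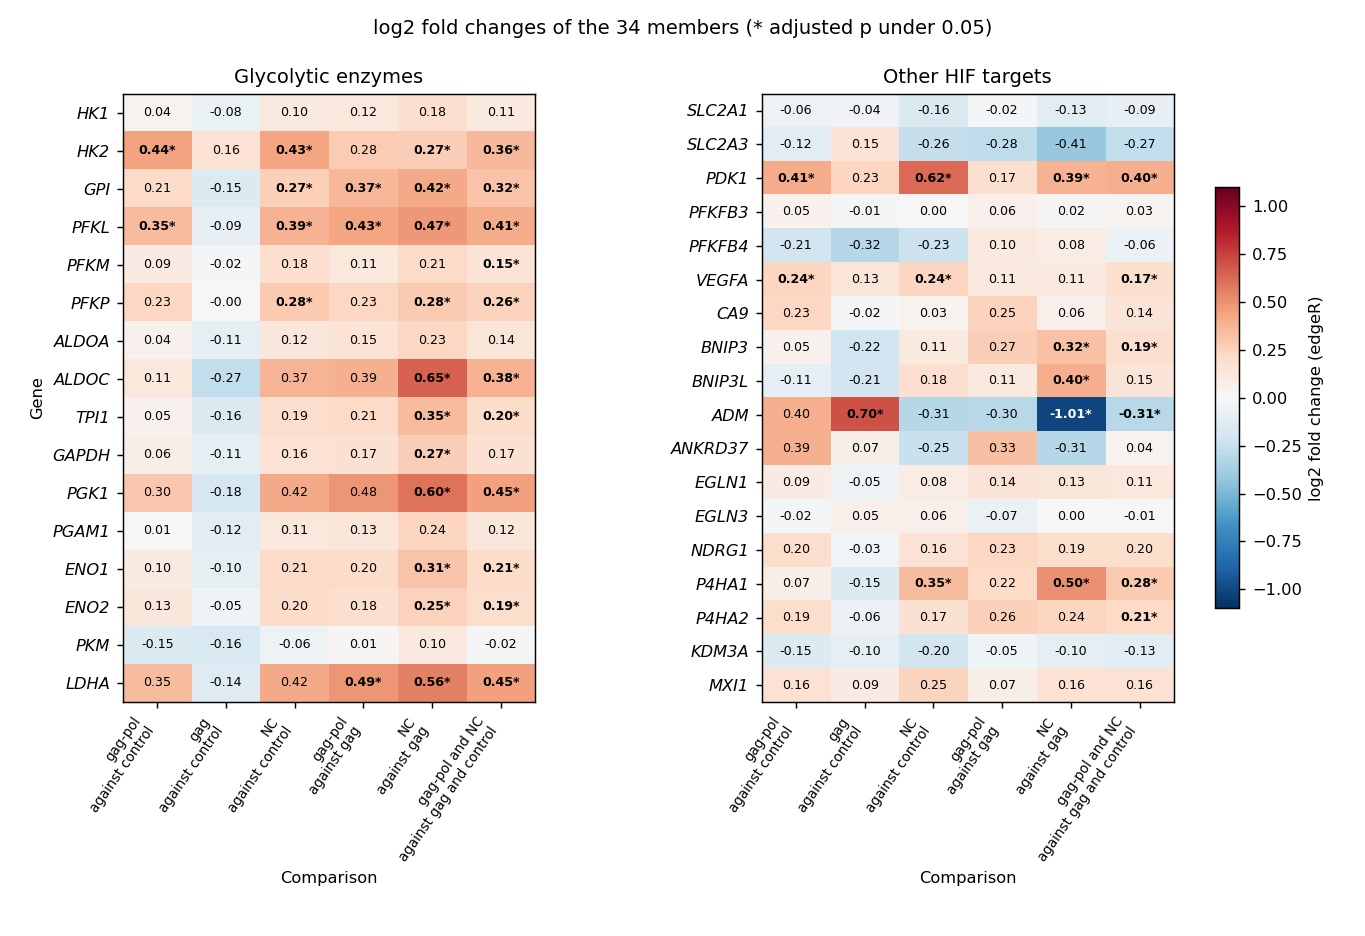
log2 fold changes from edgeR of the 16 glycolytic enzymes (left) and 18 other HIF targets (right) in 6 comparisons of constructs, with the value in each cell and an asterisk for an adjusted p under 0.05. The column of NC against gag is positive for every glycolytic enzyme, and the darkest cell is *ADM* at -1.01.

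Set against control, the counts of called genes were smaller, and the 3 comparisons share the same control libraries. With gag-pol, 4 of 34 genes rose (*HK2*, *PFKL*, *PDK1* and *VEGFA*) and none fell, where 11.3% of all genes tested were called, 5.48% as higher and 5.83% as lower. With NC, 7 rose (*HK2*, *GPI*, *PFKL*, *PFKP*, *PDK1*, *VEGFA* and *P4HA1*) and none fell, where 11.2% of all genes were called, 6.04% as higher and 5.15% as lower. With gag, *ADM* alone rose, where 1.08% were called, 0.699% as higher and 0.384% as lower. The share of the 34 genes called with gag-pol, 11.8%, was near that of all genes, and with NC it was 20.6%. The median difference of the glycolytic enzymes against control was 0.11 under gag-pol, -0.11 under gag and 0.21 under NC, beside 0.00 for all genes tested in each case. The counts rested on single libraries. With gag-pol, *HK2* alone was called without control library 3 or without gag-pol library 3, and 2 genes without control library 2. With NC, 3 were called without any one of control libraries 2 and 3 and NC libraries 2 and 3, and 4 without NC library 1. With gag, none was called without any one of control libraries 1 and 2, gag libraries 1 and 3, gag-pol library 2 and NC library 3, and 3 were called without control library 3, namely *ADM* as higher and *PGK1* and *LDHA* as lower. Without passage 3 the gag comparison called 8 genes, all lower (*GPI*, *ALDOA*, *TPI1*, *PGK1*, *ENO1*, *PKM*, *LDHA* and *NDRG1*), and *ADM* was not among them. The shares of all genes called in these refits are not given here.

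The study asked whether the nucleocapsid, once cut free of gag-pol, changes transcription in a way of its own. The comparisons of gag-pol and of NC with gag bear on this and share the gag libraries. With gag-pol against gag, *GPI*, *PFKL* and *LDHA* rose and none fell, where 6.46% of all genes were called, 3.03% as higher and 3.42% as lower. The share of the 34 genes called, 8.82%, was near that of all genes, and the *LDHA* call was lost under settings given above. No other HIF target was called, and the estimate was above 0 for 16 of 16 glycolytic enzymes, with a median of 0.20. When only the 6 libraries of gag-pol and gag were fitted, 14 genes were called, 13 of them higher. For this refit and those that follow, the share of all genes called is not given here, so their counts have no background beside them. Without control library 3, which enters this comparison only through the shared passage terms and the shared spread, 8 were called, 5 without control library 1 or gag-pol library 2, and *PFKL* alone without any one of gag-pol library 3 and gag libraries 1 and 2. For NC against gag, 5 of 34 genes were called without gag library 1 (*GPI*, *PFKL*, *BNIP3L*, *P4HA1* and *ADM*) and 8 without gag library 2 or NC library 2. In both comparisons the reference is the same 3 gag libraries, which had the lowest mean glycolytic level of their passage in passages 1 and 2.

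NC against gag-pol called none of the 34 genes in edgeR, with *ADM*, *BNIP3L* and *P4HA1* the 3 at an unadjusted p under 0.05. DESeq2 called *ADM*, as lower, as did edgeR without the filter on low counts and without any one of control library 1, gag-pol library 3 and NC library 2. Here 0.0873% of all genes tested were called. The differences of the glycolytic enzymes ran from -0.01 to 0.26. For *HK2* the 95% interval was -0.18 to 0.17 and for *PFKL* -0.12 to 0.20, while for *PGK1* (-0.23 to 0.47) and *LDHA* (-0.22 to 0.36) the intervals were wider.

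When the mean of gag-pol and NC was set against the mean of gag and control, 16 of 34 genes rose and *ADM* fell by 0.31 (adjusted p = 0.0465), where 24.7% of all genes were called, 13.1% as higher and 11.6% as lower. This grouping was chosen with earlier results of these data known. The genes that rose comprise 11 of 16 glycolytic enzymes and 5 of 18 other HIF targets. The largest rises were those of *LDHA* (0.45, adjusted p = 0.00455) and *PGK1* (0.45, adjusted p = 0.0152), followed by *PFKL* (0.41, adjusted p = 4.97e-05), *PDK1* (0.40, adjusted p = 0.000715), *ALDOC* (0.38, adjusted p = 0.017) and *HK2* (0.36, adjusted p = 0.000349). The others were *GPI* (0.32), *P4HA1* (0.28), *PFKP* (0.26), *P4HA2* (0.21), *ENO1* (0.21), *TPI1* (0.20), *ENO2* (0.19), *BNIP3* (0.19), *VEGFA* (0.17) and *PFKM* (0.15, adjusted p = 0.0393). *BNIP3* was at the threshold (adjusted p = 0.0499) and lost its call with RLE normalization (adjusted p = 0.0528), with *PEG10* left out (adjusted p = 0.0553) and in DESeq2 (adjusted p = 0.0551). *PGK1* lost its call here without the filter on low counts (adjusted p = 0.0552). Without control library 3 or without gag-pol library 3, 10 genes were called. All calls between constructs depended on the passage term. Without the replicate block no member was called in any of the 7 comparisons of constructs, and at most 2 of all genes tested were.

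The passages were a second source of difference. Over the 3 replicate numbers, 19 of 34 genes differed (9 glycolytic enzymes and 10 other HIF targets). This share, 55.9%, was near the 52.8% of all genes tested that differed. Replicate 3 against replicate 1 had 11 of 16 glycolytic enzymes lower and none higher, where 21% of all genes were called as lower and 20.6% as higher. Against replicate 2, 7 were lower and none higher, where 14.1% of all genes were lower and 12.9% higher. *PDK1* differed by -0.84 (adjusted p = 3.3e-07) and *PGK1* by -0.58 (adjusted p = 0.0065) between replicates 3 and 1. Replicate 2 against replicate 1 had 3 of 34 genes higher and 4 lower, where 15.9% of all genes were higher and 14.7% lower. The share called was 20.6% of the 34 genes and 30.5% of all genes tested. *VEGFA* was higher by 0.29 and *P4HA2* by 0.47, and *SLC2A1* was lower (-0.33). What set the passages apart is not given in the sources used here.

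Other genes of the pathway were taken from a list of 86, of which 81 were tested. *MIF* is listed at 0 in all libraries. Against control, 8 of the 81 rose and 3 fell with gag-pol, 2 rose and 1 fell with gag, and 10 rose and 1 fell with NC. These are 13.6%, 3.70% and 13.6% of the 81, beside 11.3%, 1.08% and 11.2% of all genes tested, so that the shares with gag-pol and NC were near the background. The list holds the regulators of HIF, and of these 10 genes *ARNT2*, a partner of the HIF alpha subunits, rose by 0.53 with gag-pol (adjusted p = 0.00336), and none was called with gag or NC. *HIF1A* itself, the oxygen-regulated subunit, differed by -0.12 under gag-pol, -0.01 under gag and -0.10 under NC. *HILPDA*, a HIF target that coats lipid droplets, was at 915, 626 and 468 in control and at 1098, 821 and 816 with NC. *HILPDA* rose by 0.48 with NC (adjusted p = 0.00944) and *DDIT4*, a HIF target that restrains mTORC1, by 0.37 (adjusted p = 0.00962). With gag-pol, *HILPDA* was at 1103, 808 and 749. *DDIT4* was at 7778, 7057 and 4596 in control and at 9120, 8511 and 6181 with gag-pol. Both thus stood above control in every passage with gag-pol as well. Of the 28 further HIF targets tested in this list, 4 were called higher and 2 lower with gag-pol. With NC, 3 were higher and 1 lower.

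With gag-pol, *NFIL3*, a transcription factor, rose by 0.64 (adjusted p = 0.0111) and *ENO3*, the muscle enolase, fell by 0.61 on the log2 scale (adjusted p = 0.00767), opposite in sign to *ENO1* and *ENO2*. *PLOD2*, a collagen lysyl hydroxylase, fell by 0.38 with gag (adjusted p = 0.0388). *TXNIP* and *ARRDC4*, which the glucose sensor MLXIP induces and which lower glucose uptake, rose with every construct. *ARRDC4* was at 1992, 3826 and 1717 in control, 3669, 5652 and 3602 with gag-pol, 2991, 4474 and 2240 with gag and 3731, 5729 and 3495 with NC. *ARRDC4* rose by 0.83 with gag-pol (adjusted p = 1.09e-05), 0.39 with gag (adjusted p = 0.0327) and 0.83 with NC (adjusted p = 2.63e-05). *TXNIP* followed another order, with 1.07, 0.99 and 0.65, and was lower with NC than with gag (fell by 0.34, adjusted p = 0.0254).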

How the data were processed

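Poly(A) RNA of 12 HEK293 samples was sequenced as read pairs. The authors mapped reads to GRCh38.p13 with STAR 2.7.3, sorted them with SAMtools 1.8 and counted them per gene with featureCounts, and the deposited values are raw counts of 26485 genes, 3535 of them without a read. The annotation release, strand setting and treatment of multimapping reads are not given in the sources used here. All count columns were used.

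Samples were grouped by the construct and replicate number in their labels. Counts were fitted once over the 12 libraries in edgeR 4.0.16 (R 4.3.3) with TMM factors (0.94 to 1.06), filterByExpr by construct (minimum count 10, minimum total 15), and the robust quasi-likelihood test with construct and replicate number as terms, since the authors modeled harvest date and construct. This left 6 residual degrees of freedom and a biological coefficient of variation of 10.7%. Same-numbered libraries deviated together (correlations of 0.14 to 0.54 in 18 pairs, -0.50 to 0.07 in 36 pairs of different number), and the series' design text gives the numbers as independent passages. P-values were adjusted by Benjamini-Hochberg over 17176 genes, with a threshold of 0.05. Normalized counts are scaled by TMM library size to the mean total, and log2 CPM used a prior count of 2. Exon lengths and overlaps come from GENCODE release 44, which may not be the authors' annotation. Promoter windows are from RefSeq.

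The alternatives were DESeq2 1.42.0, RLE factors, no filter, *PEG10* left out, no replicate number, only the 6 compared libraries, and each library or replicate number left out. Members, lists and tests were chosen with earlier results of these data known. Named are all members called between constructs, with their family members, and for each comparison with control, at most the 4 other called pathway genes of largest change, besides *TXNIP*, *ARRDC4* and *PEG10*. *HIF1A*, *MIF* and the other members given by range were named after their values were seen. Python 3.11.15, pandas 2.3.3 and matplotlib 3.10.9 made the tables and figures.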

Additional observations from a re-analysis of the deposited data

How the results depend on the processing

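Without a replicate block, that is without the paired passage term, 0 members were called in each of the comparisons gag-pol against control, gag against control, NC against control, gag-pol against gag, NC against gag and the mean of NC and gag-pol against that of control and gag, in place of 4, 1, 7, 3, 16 and 17. When only the 6 compared libraries were fitted, gag-pol against gag called 14. NC against gag-pol called 1 without the filter on low counts and 1 in DESeq2, in place of 0. Leaving out a library or a replicate number gave 1 to 6 called members for gag-pol against control, 0 to 8 for gag against control and 3 to 10 for NC against control. It gave 0 to 8 for gag-pol against gag, 4 to 22 for NC against gag and 0 to 2 for NC against gag-pol. For NC and gag-pol against control and gag it gave 10 to 19. Among replicate numbers, where only single libraries were left out (12 fits), 16 to 23 were called. The 8 with gag were called without replicate 3 and were all lower. Shares of all genes called in these refits are not given here, so a larger count is not by itself a result about the members. Of the 48 calls of single members between constructs, DESeq2 kept 47, RLE factors 45, no filter 45 and leaving *PEG10* out 44, and no call changed direction under any alternative. Leaving out a library or passage kept 492 of 720 calls. With 3 libraries a construct, the cause of these changes was not tested.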
